A study of Mus musculus with 18 samples.

Results

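Carbonyl reductases, epoxide hydrolase, aldo-keto reductases and aldehyde dehydrogenases remove reactive carbonyls and epoxides from cells, and 10 mouse genes of these families were followed here. They were chosen by name as Cbr1, Cbr3, Ephx1, Akr1a1, Akr1b8, Akr1b3, Aldh1a1, Aldh2, Aldh7a1 and Aldh9a1. Through the transcript accession that each spot of the array carries, 9 of the 10 matched at least 1 probe, with 13 probes between them, among 41174 probes and 18217 named genes on the array. Cbr1 matched none and is not analysed here. Ephx1, Akr1b3, Aldh7a1 and Aldh9a1 had 2 probes each.

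The study measured RNA in cortex, hippocampus and brainstem of Nrf2 knockout (KO) mice and wild-type (WT) control mice, all male, of strain 129SV, and not stressed. Each of the 6 groups had 3 arrays: KO cortex, WT cortex, KO hippocampus, WT hippocampus, KO brainstem and WT brainstem. How the Nrf2 gene (Nfe2l2) was disrupted, the age of the mice, and whether the 3 regions came from the same mice are not given in the sources used here. The design text calls the 3 RNAs of a group independent. The p-values rest on the spread between RNAs within a group, pooled over the 6 groups, and treat arrays of different regions as independent. A level is the log2 of the array's processed signal minus that array's 75th percentile, so a level of 0 is the brightness that 75% of spots stay below. Levels of one probe were compared between groups, and no probe was set against another, since probes differ in how brightly they bind.

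Nrf2 is a transcription factor that is held low by Keap1 and, when electrophiles or oxidants release it, binds antioxidant response elements (AREs) near genes of glutathione, quinone and carbonyl metabolism. The reductases use NADPH to turn a carbonyl into an alcohol, epoxide hydrolase opens an epoxide into a diol, and the dehydrogenases oxidise an aldehyde to its acid. In brain these routes handle products of lipid peroxidation such as 4-hydroxynonenal, the aldehydes left when monoamines are deaminated, and glucose-derived or retinoid aldehydes.

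Of the 45018 spots on each array, 43379 were not controls, and 65.3% to 75.1% of these were well above background. As a check of the labels, Nfe2l2 lay between -8.39 and -3.62 on the 9 KO arrays, of which 5 were not well above background, against 0.79 to 1.39 on the 9 WT arrays. Gstm1, a glutathione transferase and known Nrf2 target, differed between KO and WT by -1.03 ± 0.09 (cortex), -0.81 ± 0.09 (hippocampus) and -1.01 ± 0.09 (brainstem) on the log2 scale (limma estimate ± SE), and passed the test each time. Tbr1 and Cux2 were highest in cortex, Zbtb20 and Grp in hippocampus, and Hoxb5 and Gata3 in brainstem. Prox1, at -3.002 to -2.138 in hippocampus, lay above cortex but overlapped brainstem, at -3.415 to -2.9. KO cortex array 1 and KO brainstem array 3 stood apart, with a median absolute log2 difference per gene from the other 2 arrays of their group of 0.284 and 0.338, against 0.151 to 0.26 for the remaining 16. All 13 enzyme probes were well above background on all 18 arrays except the second Aldh7a1 probe, which was on 17.

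The first question was whether loss of Nrf2 changed these enzymes in unstressed brain. None of the 9 measured enzymes passed the test in cortex, hippocampus or brainstem, or on the average of the regions (limma, Benjamini-Hochberg adjusted p under 0.05 over 22671 genes). The share of all genes that passed was itself small, at 0.0309% (cortex), 0.0176% (hippocampus), 0.0309% (brainstem) and 0.0529% (average), which is 12 genes, or 23 with the replicate number as a block. Of the 27 KO minus WT differences of an enzyme in a region, 26 had a 95% interval that included 0, and 1 had an unadjusted p under 0.05. Among all genes, such a p was found for 2.19% (cortex), 1.33% (hippocampus) and 2.96% (brainstem). On the average of the regions it was found for 6.94% of all genes and for 0 of the 9 enzymes. That number of enzymes was 0 to 2 when the processing, the fit or the arrays were varied. The 3 KO arrays and the 3 WT arrays of a region did not overlap for 1 of the 27, where 6.08%, 7.76% and 6.6% of all genes did not overlap in cortex, hippocampus and brainstem. In cortex 5 enzymes had a positive difference and 4 a negative one, with a median of 0.01, and the median over all genes was 0.00. The counts were 5 and 4 in hippocampus, with a median of 0.03 against 0.02 for all genes, and 4 and 5 in brainstem, with a median of -0.01 against 0.00.

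The intervals give the range of differences that each fit still allows. Each is for the brightest probe of an enzyme and is not adjusted for the number of comparisons. Averaged over the regions, the widest reach downward was that of Aldh2, whose interval ended at 1.39-fold lower in KO, and the widest reach upward was that of Cbr3, at 1.33-fold higher. The narrowest were those of Akr1b3 and Akr1a1, which reached 0.18 and 0.20 to either side of the estimate on the log2 scale in a single region. Within a single region the intervals reached 1.87-fold lower for Aldh2 in hippocampus and 1.76-fold higher for Cbr3 in brainstem.

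**Figure D1:**
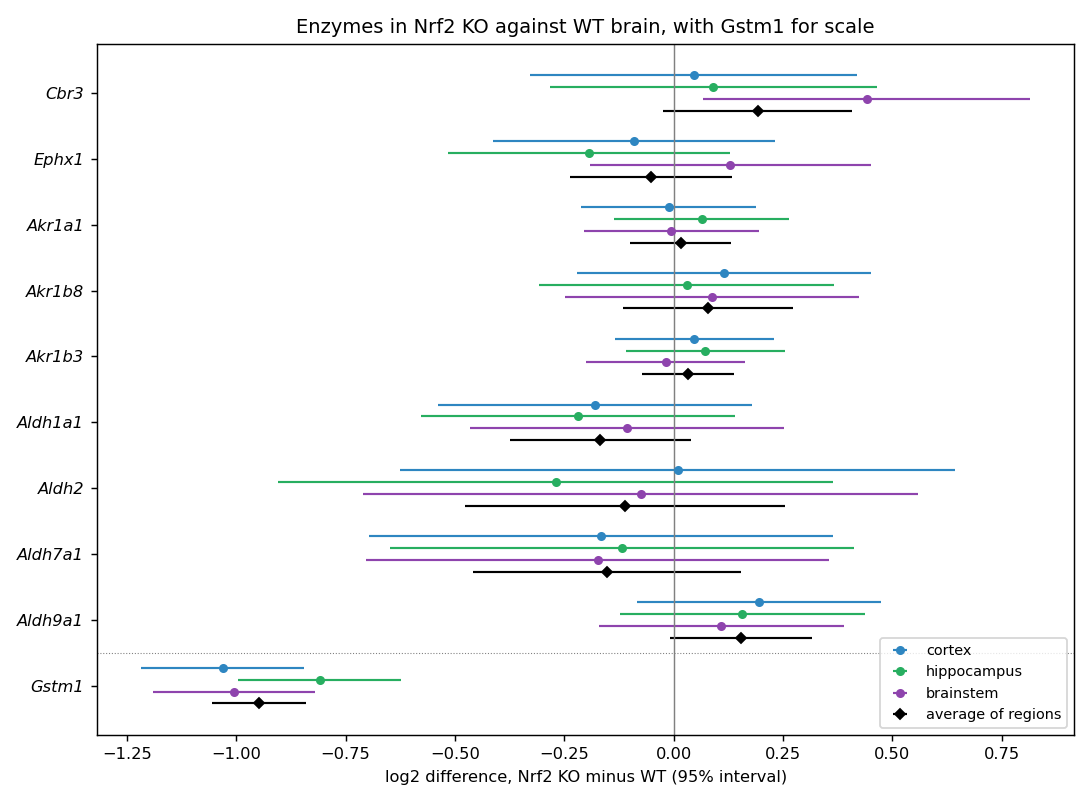
The points give the log2 difference, KO minus WT, of each enzyme in cortex, hippocampus and brainstem and averaged over the regions, and the bars give 95% intervals from limma. All enzyme intervals include 0 except that of Cbr3 in brainstem, and Gstm1, shown for scale, lies between -1.03 and -0.81.

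Cbr3, an NADPH-dependent carbonyl reductase, had the largest KO minus WT difference of the 9 enzymes in any region. In brainstem it was 1.93, 1.92 and 2.63 in KO, against 1.59, 1.78 and 1.78 in WT. All 3 KO arrays lay above all 3 WT arrays, and one of them, array 3, stood well above the other KO arrays. The difference was 0.44 ± 0.17 (unadjusted p = 0.0239, adjusted p = 0.9998), a 1.36-fold higher mean in KO. Across all genes, 3.57% had their KO brainstem arrays wholly above WT. KO brainstem array 3 is one of the arrays that stood apart. Without it the difference was 0.20, and the adjusted p stayed at 0.9996. On the slide that held brainstem arrays 1 and 2 of each genotype the difference was 0.24, and on the slide that held array 3 of each it was 0.85.

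Cbr3 in the other regions showed overlapping groups. In cortex it was 3.46, 3.28 and 3.09 in KO, against 3.22, 3.1 and 3.37 in WT, a difference of 0.05 ± 0.17. In hippocampus it was 3.0, 2.92 and 3.24 in KO, against 2.91, 2.84 and 3.14 in WT, a difference of 0.09 ± 0.17. Averaged over the regions the difference was 0.19 ± 0.10 (adjusted p = 0.728). Whether the KO effect on Cbr3 was larger in brainstem was tested directly, and the difference between the effects was 0.40 ± 0.25 against cortex and 0.35 ± 0.25 against hippocampus. Neither passed (unadjusted p = 0.131 and 0.177). At the adjusted threshold 0% of all genes passed either test, while 0.887% and 0.975% had an unadjusted p under 0.05. Of the 27 such differences between regional KO effects, hippocampus minus cortex included, none passed, and there too 0% of all genes passed and 0.834% had an unadjusted p under 0.05.

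Ephx1, the microsomal epoxide hydrolase, had KO minus WT values of -0.09 (cortex), -0.19 (hippocampus) and 0.13 (brainstem), each ± 0.15 (SE), and the groups overlapped each time. Its KO hippocampus arrays lay between 0.21 and 0.52, within the wider spread of 0.16 to 0.80 on the WT hippocampus arrays. The second Ephx1 probe gave -0.04, -0.21 and 0.13 in the same order.

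Among the aldo-keto reductases, KO and WT means lay within 0.12 of each other in every region. Akr1a1, the aldehyde reductase that in mice also takes part in vitamin C synthesis, averaged 4.46 ± 0.08 in KO cortex and 4.47 ± 0.11 in WT cortex (SD, n = 3 each). In hippocampus it was 4.43 ± 0.09 in KO and 4.37 ± 0.03 in WT, and in brainstem 4.45 ± 0.13 in KO and 4.46 ± 0.09 in WT. The mean over regions differed by 0.02 ± 0.05, with an interval from -0.10 to 0.13. Akr1b3, mouse aldose reductase, which turns glucose into sorbitol, had KO minus WT values of 0.05 (cortex), 0.07 (hippocampus) and -0.02 (brainstem), and 0.03 ± 0.05 on average. Its second probe gave -0.01, 0.05 and -0.08 in the same order. Akr1b8, an aldose reductase-like enzyme, gave 0.12 (cortex), 0.03 (hippocampus) and 0.09 (brainstem), each ± 0.16 (SE), with a brainstem mean of -0.07 ± 0.32 in KO and -0.15 ± 0.09 in WT (SD, n = 3 each). The spread in KO brainstem came from array 3 at 0.30, beside -0.29 and -0.22 on the other arrays.

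Among the aldehyde dehydrogenases, Aldh9a1, which oxidises the aldehyde precursor of carnitine and aminobutyraldehyde, had the smallest unadjusted p of the 9 on the average of the regions. In cortex it was 0.93, 0.77 and 0.78 in KO, against 0.61, 0.80 and 0.48 in WT. In hippocampus it was 0.54, 0.73 and 0.74 in KO, against 0.47, 0.64 and 0.42 in WT. In each of these regions the KO mean was higher but the groups overlapped by 1 or more arrays. In brainstem it was 1.18, 1.33 and 1.62 in KO, against 1.14, 1.48 and 1.18 in WT. The average difference of 0.15 ± 0.08 had an unadjusted p of 0.06 and an adjusted p of 0.725. The second, dimmer Aldh9a1 probe gave an average of -0.06 ± 0.08, so the probes differed in sign.

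Aldh1a1, a cytosolic enzyme that makes retinoic acid from retinaldehyde, had a negative KO minus WT value in each region, at -0.18 (cortex), -0.22 (hippocampus) and -0.11 (brainstem), each ± 0.17 (SE), and none passed the test. Without KO hippocampus array 2 the hippocampus value was -0.02. The average difference was -0.17 ± 0.10 (adjusted p = 0.728). In cortex it was 2.52, 2.53 and 2.58 in KO, against 2.82, 2.40 and 2.94 in WT, and WT array 2 lay below all 3 KO arrays.

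Aldh2, the mitochondrial enzyme that clears acetaldehyde and 4-hydroxynonenal, had the widest spread of the 9. In cortex it was -0.28, 0.92 and 0.91 in KO, against 0.48, 0.76 and 0.29 in WT. Array 1 of KO cortex, one of the arrays that stood apart, was below all others, and the other KO arrays were above all WT arrays. The difference was 0.01 ± 0.30 with that array and 0.41 without it, and neither passed the test. In hippocampus Aldh2 differed by -0.27 ± 0.30, with an interval from -0.90 to 0.36, and by -0.07 without WT hippocampus array 1, which at 1.01 was the highest of the 6.

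Aldh7a1, which acts in lysine breakdown, read dimmer, with a processed signal of 89.0 to 285 on its brighter probe, and the same arrays stood out. In cortex it was -2.84, -1.78 and -1.70 in KO, against -1.99, -1.91 and -1.90 in WT. In brainstem it was -1.84, -1.93 and -2.63 in KO, against -1.97, -1.95 and -1.97 in WT. The arrays that stood apart were lowest in both regions. With them the differences were -0.17 in cortex and -0.17 in brainstem, and without them 0.20 and 0.07, so the sign turned in both regions, and no value passed the test. The second Aldh7a1 probe had a processed signal of 14.8 to 26.7 and gave 0.12, 0.31 and 0.08 for cortex, hippocampus and brainstem, so it differed in sign from the brighter probe.

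**Figure D2:**
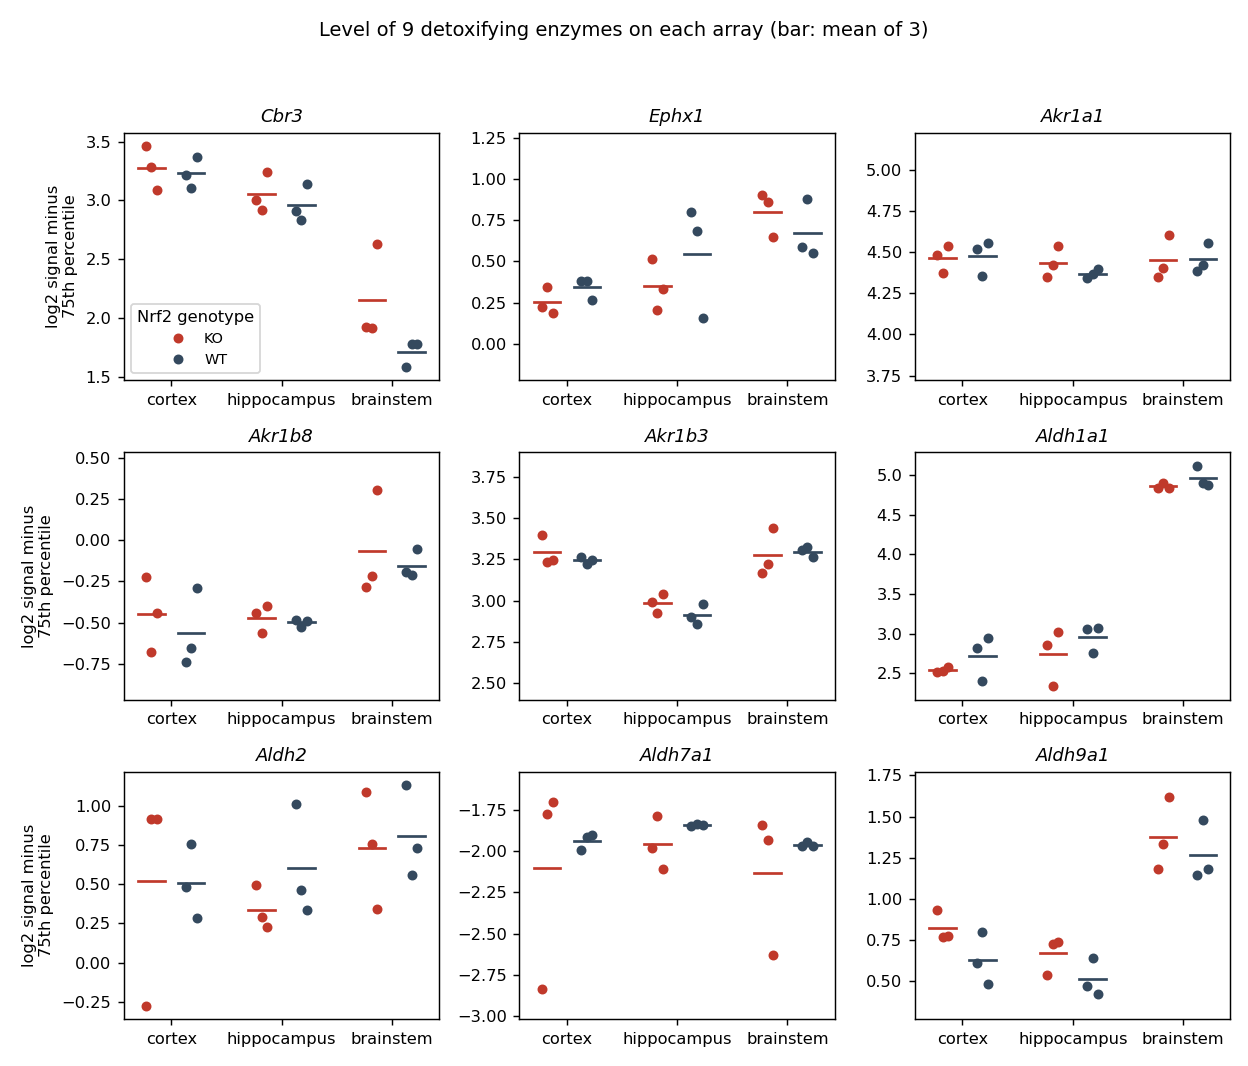
Each panel shows one enzyme's level (log2 signal minus the array's 75th percentile) on all 18 arrays, with KO left of WT in each region and a bar at the mean of 3. KO and WT overlap in all panels and regions except for Cbr3 in brainstem, while Aldh1a1, Cbr3 and Aldh9a1 in brainstem lie apart from cortex and hippocampus.

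The deviations of the enzymes from their group means were shared by some pairs. Over the 18 arrays, Cbr3 and Akr1b3 deviated together (r = 0.88), as did Aldh2 and Aldh7a1 (r = 0.78) and Cbr3 and Akr1b8 (r = 0.76). Akr1b3 and Aldh7a1 deviated in opposite directions (r = -0.85). These are descriptions over arrays that share slides, a scaling value per array and the arrays that stood apart, on which Aldh2 and Aldh7a1 were low and Cbr3, Akr1b8 and Akr1b3 were high.

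**Figure D3:**
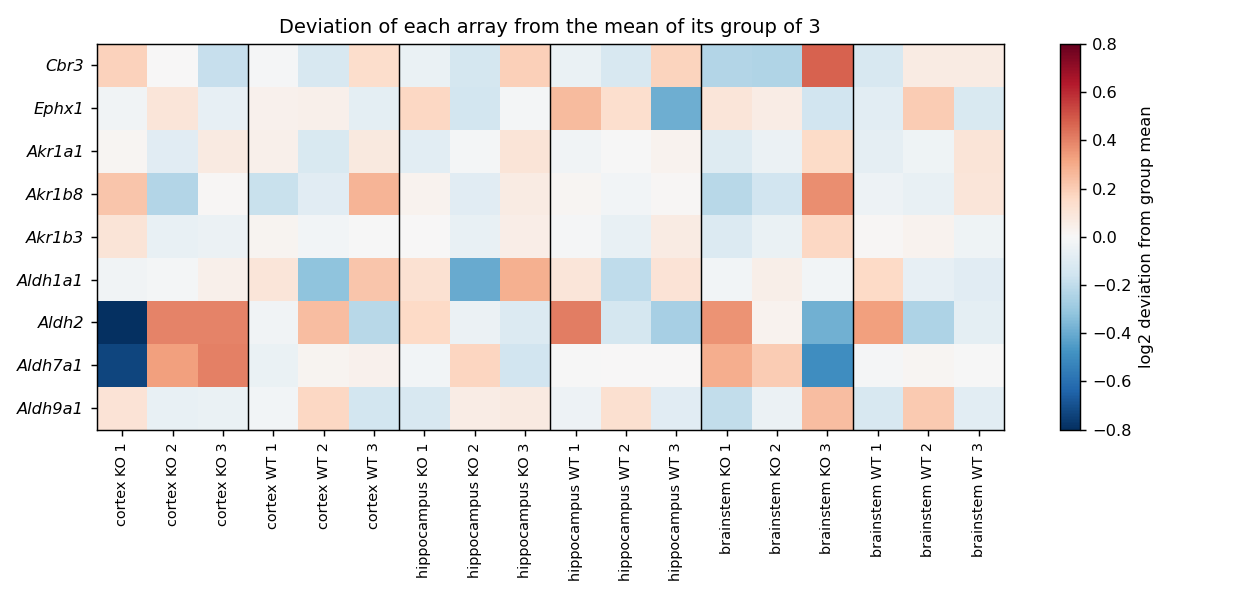
The colours give the deviation of each enzyme on each array from the mean of its group of 3, on the log2 scale. KO cortex array 1 and KO brainstem array 3 have low Aldh2 and Aldh7a1 and high Cbr3, Akr1b8 and Akr1b3.

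The next question was how the enzymes were distributed over the regions of WT brain, where the design gives 3 comparisons. Brainstem stood apart for Aldh1a1, which was higher there, for Cbr3, which was lower there, and for Aldh9a1, which was higher there. In WT brainstem against WT cortex, 2 enzymes rose and 1 fell among 9, where 35.8% of all genes passed the test (19.1% higher, 16.6% lower). In WT brainstem against WT hippocampus, 3 rose and 1 fell among 9, where 41.5% of all genes passed (23% higher, 18.5% lower). In WT hippocampus against WT cortex, 1 of 9 passed, and it fell, where 17.2% of all genes passed (6.78% higher, 10.4% lower). These shares are near those of all genes. In whole tissue, fewer cells of a type and less RNA per cell cannot be told apart.

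Aldh1a1 was 5.12, 4.89 and 4.87 in WT brainstem, against 2.82, 2.40 and 2.94 in WT cortex and 3.05, 2.75 and 3.07 in WT hippocampus. The brainstem arrays lay above all arrays of the other regions by a wide margin. The difference was 2.24 ± 0.17 against cortex (adjusted p = 1.18e-07), a 4.72-fold higher mean with an interval ending at 6.05-fold, and 2.0 ± 0.17 against hippocampus (adjusted p = 2.69e-07), a 4.01-fold higher mean. Hippocampus and cortex differed by 0.24 ± 0.17 (adjusted p = 0.386), within the spread of their arrays. The KO arrays, whose means entered neither difference, had the same order, with 4.83, 4.90 and 4.83 in KO brainstem, against 2.52, 2.53 and 2.58 in KO cortex and 2.86, 2.34 and 3.02 in KO hippocampus.

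Marker genes of several cell types moved with this regional difference. Midbrain dopamine neurons are known to hold Aldh1a1. The 7 of 8 dopamine neuron markers that could be tested had a mean level of 0.23 to 0.47 on the 6 brainstem arrays, against -2.87 to -1.73 on the 12 arrays of the other regions, and all 7 were well above background in every group. The mean level of the 13 of 14 oligodendrocyte and myelin markers on the array was 3.21 to 3.41 in brainstem, against 1.41 to 2.30 in the other regions. For the 14 astrocyte markers it was 2.92 to 3.06 in brainstem, against 2.48 to 2.66 in the other regions. Within these lists, 5 dopamine neuron markers were higher and 1 lower in WT brainstem than in WT cortex, 13 oligodendrocyte markers were higher and 0 lower, and 9 astrocyte markers were higher and 3 lower. Of the other lists, 4 of 6 ependymal, 4 of 13 endothelial and mural, and 3 of 11 meningeal and fibroblast markers were higher and 0 lower. Of 12 microglial markers 6 were lower and 0 higher, and of 11 general neuron markers 3 were higher and 3 lower. None of 11 choroid plexus or 4 erythrocyte markers passed. Among all genes, 19.1% were higher and 16.6% lower in that comparison. The part of these cell types in the Aldh1a1 difference was not tested.

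Cbr3 ran the other way. It was 1.59, 1.78 and 1.78 in WT brainstem, against 3.22, 3.1 and 3.37 in WT cortex and 2.91, 2.84 and 3.14 in WT hippocampus. The highest WT brainstem array lay below the lowest array of either other region. The difference was -1.51 ± 0.17 against cortex (adjusted p = 8.58e-06), which is 0.350 of the cortex mean, and -1.25 ± 0.17 against hippocampus (adjusted p = 4.30e-05). Hippocampus minus cortex was -0.27 ± 0.17 and did not pass (adjusted p = 0.344). In KO brain the same differences were -1.12 and -0.90, with the KO brainstem array at 2.63 in the mean.

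Aldh9a1 was 1.14, 1.48 and 1.18 in WT brainstem, against 0.61, 0.80 and 0.48 in WT cortex and 0.47, 0.64 and 0.42 in WT hippocampus. Every brainstem array lay above every array of the other regions. It was higher in brainstem by 0.64 ± 0.13 against cortex (adjusted p = 0.00138) and by 0.76 ± 0.13 against hippocampus (adjusted p = 0.000286). Its second probe, which read far dimmer, gave 0.68 ± 0.13 and 0.49 ± 0.13 and passed both tests over all probes (adjusted p = 0.000929 and 0.00784). In KO brain the differences of the first probe were 0.55 and 0.71.

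Akr1b3 had a smaller pattern, with hippocampus lowest. It was 3.30, 3.32 and 3.26 in WT brainstem, 2.90, 2.86 and 2.98 in WT hippocampus, and 3.27, 3.22 and 3.24 in WT cortex. All 3 hippocampus arrays lay below all arrays of the other regions. Hippocampus minus cortex was -0.33 ± 0.09 (adjusted p = 0.0142), and brainstem minus hippocampus was 0.39 ± 0.09 (adjusted p = 0.00206). The call against cortex was lost without WT cortex array 1, WT hippocampus array 1 or WT hippocampus array 2 (adjusted p = 0.0545, 0.0518 and 0.0626), with differences of -0.32, -0.33 and -0.30. Brainstem and cortex differed by 0.05 ± 0.09 (adjusted p = 0.675). The second Akr1b3 probe gave -0.37 and 0.49 for the same comparisons, and both passed (adjusted p over all probes of 0.00865 and 0.000357). In KO brain they were -0.31 and 0.29.

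Akr1b8, in brainstem against cortex, lay just outside the threshold. Akr1b8 was -0.19, -0.21 and -0.06 in WT brainstem, against -0.74, -0.65 and -0.29 in WT cortex, a difference of 0.41 ± 0.16 (adjusted p = 0.0576). Against hippocampus it was 0.34 ± 0.16 (adjusted p = 0.0934). With the replicate number as a block, both passed (adjusted p = 0.0243 and 0.0443) at the same sizes. Without the 2 arrays that stood apart, which belong to neither group but to the shared estimate of the spread, both passed as well (adjusted p = 0.0105 and 0.0218). Ephx1 differed by 0.33 ± 0.15 between brainstem and cortex (adjusted p = 0.106), and its second probe by 0.43 ± 0.17 (adjusted p over all probes of 0.0645). Akr1a1, Aldh2 and Aldh7a1 passed in no regional comparison. Akr1a1 differed by -0.02 ± 0.09 between brainstem and cortex, with an interval from -0.22 to 0.18, and Aldh2 by 0.30 ± 0.30, with an interval from -0.34 to 0.93.

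**Figure D4:**
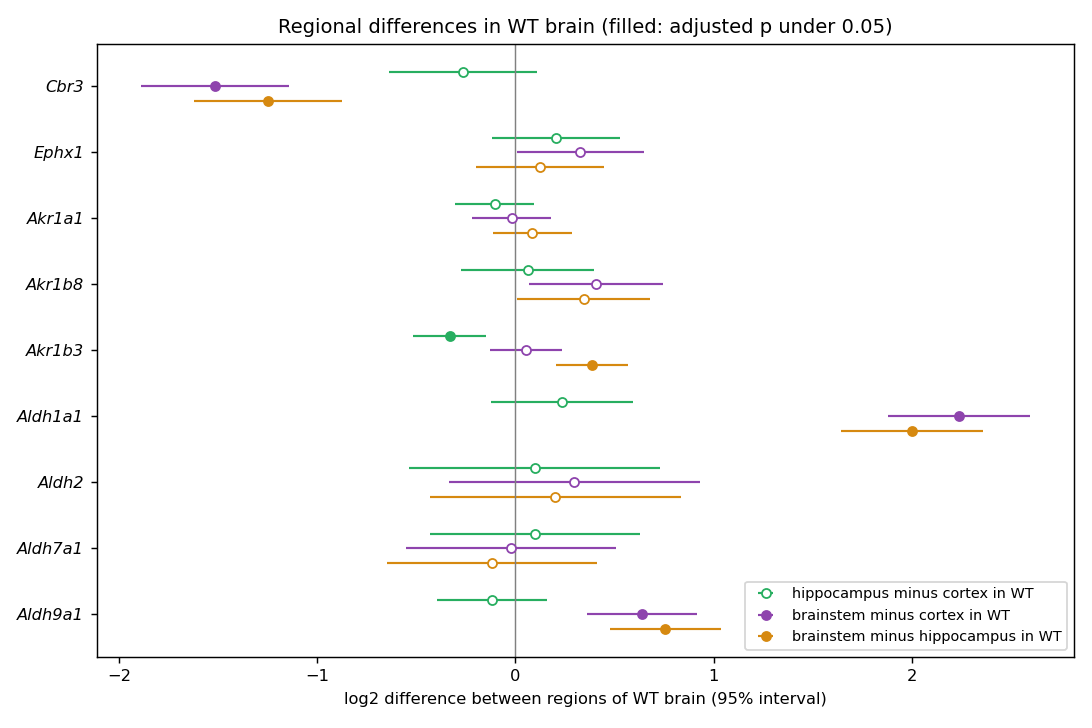
The points give the log2 differences between regions of WT brain with 95% intervals, filled where the adjusted p is under 0.05. Aldh1a1 at 2.24 and 2.0 and Cbr3 at -1.51 and -1.25 lie farthest from 0 in brainstem, with Aldh9a1 and Akr1b3 nearer to it.

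Slides bore on these comparisons. The 3 cortex arrays of each genotype lay on slides of their own, so slide and region cannot be told apart for comparisons with cortex. With slide as a random block, brainstem minus cortex was 2.20 for Aldh1a1, -1.46 for Cbr3 and 0.67 for Aldh9a1, and all 3 passed (adjusted p = 9.38e-07, 4.61e-05 and 0.00322). One slide held 1 WT brainstem and 1 WT hippocampus array, and between them Aldh1a1 differed by 1.82, Cbr3 by -1.13, Aldh9a1 by 0.71 and Akr1b3 by 0.36. With slide as a fixed block these 4 differences between brainstem and hippocampus were 1.84, -0.93, 0.92 and 0.45, and all passed (adjusted p = 0.000130, 0.00671, 0.00227 and 0.0128). That fit compares the regions through this slide alone. It also held KO hippocampus array 1 and KO brainstem array 3, the latter an array that stood apart.

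Aldh1a1 and Cbr3 move in opposite directions in brainstem, and Aldh9a1 holds the only match to the ARE core among the entries searched. For these 3 enzymes, which differ in brainstem from both other regions, the 250 bases before the annotated start are shown. They are from RefSeq on build GRCm38.p6, in lower case with motif matches in capitals, and all lie on the plus strand: chr19:20601718-20601967 for the second of the 2 listed starts of Aldh1a1, chr16:93682969-93683218 for Cbr3, and chr1:167349741-167349990 for Aldh9a1. The motifs were chosen after the sequences had been seen.
Aldh1a1: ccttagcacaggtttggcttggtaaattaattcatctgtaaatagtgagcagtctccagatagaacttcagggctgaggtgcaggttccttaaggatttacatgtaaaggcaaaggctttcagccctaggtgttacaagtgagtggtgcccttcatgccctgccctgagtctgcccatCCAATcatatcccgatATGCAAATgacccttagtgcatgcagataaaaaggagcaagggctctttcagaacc
Cbr3: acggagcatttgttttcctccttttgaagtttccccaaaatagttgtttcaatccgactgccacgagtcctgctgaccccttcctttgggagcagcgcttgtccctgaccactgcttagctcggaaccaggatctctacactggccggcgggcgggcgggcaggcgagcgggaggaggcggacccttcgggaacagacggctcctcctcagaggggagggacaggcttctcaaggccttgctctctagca
Aldh9a1: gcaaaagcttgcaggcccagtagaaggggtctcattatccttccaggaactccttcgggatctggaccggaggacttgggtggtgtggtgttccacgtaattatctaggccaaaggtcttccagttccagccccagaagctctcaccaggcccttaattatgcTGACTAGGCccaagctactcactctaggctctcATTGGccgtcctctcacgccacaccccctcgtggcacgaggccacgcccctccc
The ARE core TGACNNNGC, searched on both strands, matched in 1 of the 6 measured enzymes whose promoter entries were searched, Aldh9a1. The match was TGACTAGGC at 87 to 79 bases before the start. The core was found in 10.2% of 32851 promoters of this length. The enzyme search left out entries on 1 chromosome, and the count over all promoters did not. Akr1b3, Aldh2 and Aldh7a1 had no entry searched, so whether the core lies before them is not known here. The CCAAT box, searched as CCAAT on both strands, was found before Aldh1a1, Aldh9a1 and Ephx1, and in 33.8% of all promoters. The octamer ATGCAAAT, on both strands, lay 56 to 49 bases before the second listed start of Aldh1a1 and was found in 1.6% of all promoters. The window before the first listed start of Aldh1a1 held no match to any of these motifs. No 2 of these matches overlap. A match describes the letters of this window and shows no binding.

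The other enzymes of the same routes were read from 5 lists of 64 genes, of which 61 were on the array and 55 could be tested. None passed for KO against WT in a single region. On the average of the regions, where 0.0529% of all genes passed, 1 of 55 did so, Aox1, an aldehyde oxidase, at -1.16 ± 0.14 (adjusted p = 0.00302), with region values of -1.34 (cortex), -1.09 (hippocampus) and -1.06 (brainstem) that did not pass there. With the replicate number as a block the cortex value passed (adjusted p = 0.00571). The median difference of the 55 was 0.03 in cortex, 0.01 in hippocampus and 0.00 in brainstem.

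Between regions of WT brain, 18 of the 55 rose and 6 fell in brainstem against cortex, where 35.8% of all genes passed, with a median of 0.29 against 0.03 for all genes. In brainstem against hippocampus 25 rose and 8 fell, where 41.5% of all genes passed, with a median of 0.35 against 0.01. In hippocampus against cortex 5 rose and 6 fell, where 17.2% of all genes passed. The values that follow are for brainstem against cortex. Of 12 carbonyl reductases and related dehydrogenases 5 rose and 0 fell, among them Hsd11b1, which regenerates active glucocorticoid, at 0.84 ± 0.14 (adjusted p = 0.000253) and Dcxr, which reduces dicarbonyls and xylulose, at 0.62 ± 0.12 (adjusted p = 0.000878). Of 4 other epoxide hydrolases 1 rose and 2 fell, and Ephx4 fell by 2.48 ± 0.12 (adjusted p = 1.96e-09) and Ephx2, the soluble enzyme, by 0.95 ± 0.22 (adjusted p = 0.00320).

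Of 9 aldo-keto reductases tested, 4 rose and 1 fell in that comparison. The one that fell was Akr1c18, a 20-alpha-hydroxysteroid dehydrogenase that inactivates progesterone. Its level was -8.50, -5.82 and -8.41 in WT brainstem, against -1.69, -2.26 and -1.62 in WT cortex, and only 1 of the 3 brainstem arrays had it well above background. The fitted difference was -5.72 ± 0.53 (adjusted p = 9.81e-07). Akr1b7 was not well above background on any WT cortex array and averaged -5.05 in WT brainstem, against -8.22 as measured in WT cortex. The measured difference passed the limma test (adjusted p = 1.39e-08). With the cortex level set to the lowest signal that was well above background on each array, Akr1b7 was at least 2.81-fold higher in brainstem. That bound was not tested. Akr1c19, Akr1c12 and Akr1b10 were higher by 1.65, 1.08 and 0.89.

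Among 14 aldehyde dehydrogenases 2 rose and 2 fell. Aldh1l2, a mitochondrial folate enzyme, rose by 1.18 ± 0.18 (adjusted p = 0.000105) and Aldh5a1, which oxidises succinic semialdehyde from GABA, by 0.65 ± 0.11 (adjusted p = 0.000377). Aldh1a3, another retinaldehyde dehydrogenase, fell by 1.65 ± 0.27 (adjusted p = 0.000228), and Aldh1b1 fell by 0.34 ± 0.11 (adjusted p = 0.0292). Of 16 further aldehyde, quinone and glyoxal enzymes 6 rose and 1 fell. The quinone reductases Nqo2 and Nqo1 rose by 0.97 ± 0.17 and 0.65 ± 0.16, and Gsta4, a glutathione transferase active on 4-hydroxynonenal, by 0.93 ± 0.11 (adjusted p = 9.20e-06). Aox3, an aldehyde oxidase, was the one that fell, by 1.53 ± 0.43 (adjusted p = 0.0117), and 1 of 3 WT brainstem arrays had it well above background.

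In hippocampus against cortex, 4 of 14 aldehyde dehydrogenases fell and 0 rose, where 10.4% of all genes were lower and 6.78% higher. They were Aldh1a7 at -2.20 ± 0.22 (adjusted p = 1.27e-05), Aldh1a2 at -1.31 ± 0.25 (adjusted p = 0.00215), Aldh1a3 at -1.17 ± 0.27 (adjusted p = 0.00785) and Aldh1l1, a folate enzyme of astrocytes, at -0.74 ± 0.11 (adjusted p = 0.000337). Of 16 further aldehyde, quinone and glyoxal enzymes 2 rose and 0 fell. Among them Ptgr1, a reductase of unsaturated carbonyls, rose by 1.45 ± 0.25 (adjusted p = 0.000923). Of 12 carbonyl reductases and related dehydrogenases 1 rose and 1 fell. Of 9 aldo-keto reductases 2 rose and 1 fell, and of 4 other epoxide hydrolases none passed.

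**Figure D5:**
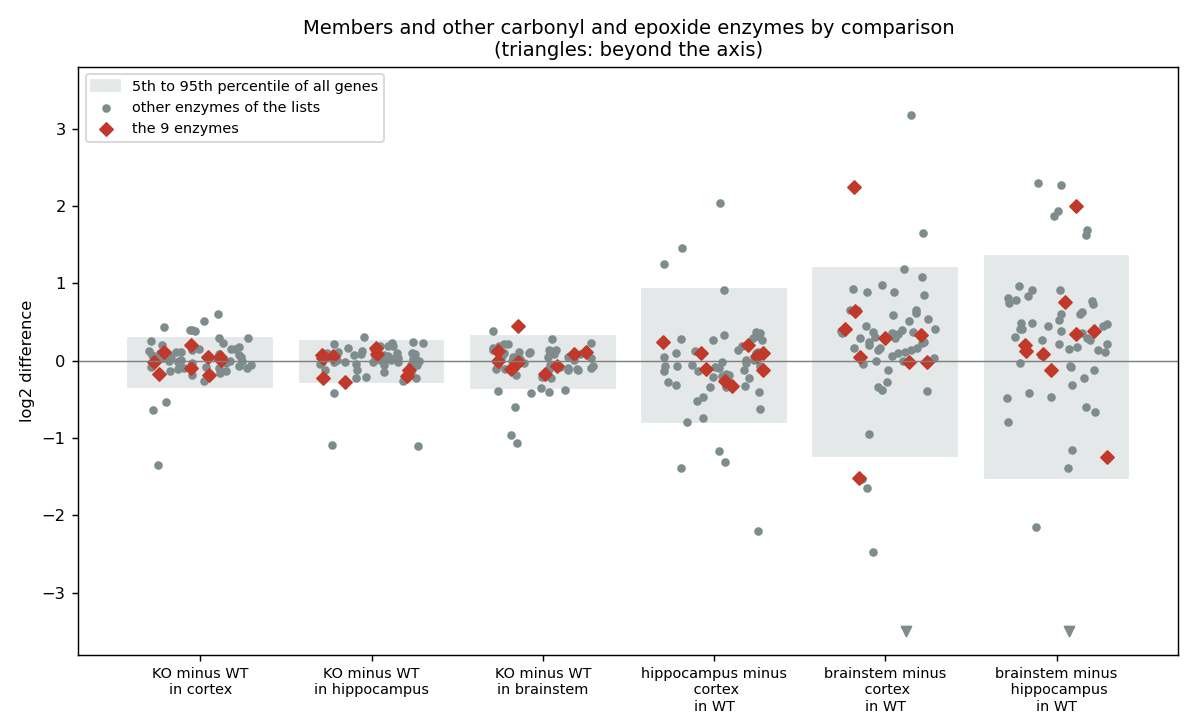
Diamonds give the 9 enzymes and circles the other listed enzymes, by log2 difference in 6 comparisons, over a band from the 5th to the 95th percentile of all genes. The enzymes lie close to 0 for KO minus WT, where Cbr3 in brainstem reaches 0.44, and are spread more widely between regions, where Aldh1a1 reaches 2.24 and Cbr3 -1.51.

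The genes whose level over the 18 arrays was most like that of each enzyme are given by Pearson r as a description, over arrays that share region and slide. For Aldh1a1 they were Ddc (r = 0.989), the decarboxylase of monoamine synthesis, Trim36 (0.988) and En2 (0.987), a midbrain and hindbrain patterning factor. For Cbr3 they were Akap5 (0.984), a postsynaptic anchoring protein, Fbxl16 (0.982) and Arel1 (0.979). For Aldh9a1 they were Rmdn2 (0.971), Rdm1 (0.967) and B3gnt4 (0.966). For Akr1b3 they were Larp1b (0.9704), Pdp1 (0.960) and Mgst3 (0.956), and for Akr1b8 Fuca2 (0.968), Tfg (0.961) and Me2 (0.959). The enzymes with little regional difference had lower values at the top, with Scara5 for Ephx1 (0.921), Mrpl30 for Akr1a1 (0.931), Pygb for Aldh2 (0.920) and Gar1 for Aldh7a1 (0.929).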

How the data were processed

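Total RNA was extracted with Isogen, and 500 ng was labelled with Cy3 for Agilent 1-colour arrays, per the labels' protocols. Agilent Feature Extraction 10.7.3.1 wrote the spot intensity values, per the file headers, and its processed signal, already background-subtracted, was used as deposited. The intensity values of the authors' deposited table were used only as an alternative. Of its 18 columns, 11 held the array that their title names and 7 held another array (KO cortex 3 and all 6 hippocampus columns), with signals that differed by at most 0.394% for nearly all probes.

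Control spots and the 30 to 140 spots per array marked as outliers were left out, spots of a probe were averaged, and log2 of the processed signal was taken minus each array's 75th percentile. That percentile was an intensity of 636 to 1102, spots of one probe had a median coefficient of variation of 13.2% to 16.0%, and no spot was saturated. The small number of arrays limits the precision. Probes were named by accession through RefSeq genes on GRCm38.p6: 26690 of 41174 matched 1 symbol and 14484 matched none. A probe was kept where some group had it well above background on each of its 3 arrays. This left 30066 probes, and the brightest stood for its gene, which gave 22671 genes, 7846 of them without a symbol.

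limma 3.58.1 in R 4.3.3 fitted 1 mean per group over all 18 arrays, with two-sided tests adjusted by Benjamini-Hochberg, after a check on simulated data. Intervals are limma's 95% intervals. Python 3.11.15, pandas 2.3.3 and matplotlib 3.10.9 did the rest. KO and WT arrays with the same number in a region deviated together in 9 of 9 pairs (r = 0.238 to 0.622). The numbers were therefore taken to pair arrays, and the block was fitted as an alternative. Each of these pairs also shared a slide. KO and WT arrays of a region with other numbers on a shared slide gave r = -0.333 to 0.235. Arrays of a genotype with the same number in different regions, none of them on a shared slide, had a median r of 0.224. It ran from -0.052 to 0.710 in 18 pairs. With other numbers, some on a shared slide, the median was -0.116, from -0.559 to 0.294 in 36 pairs. The part of the slide in the pairing was not tested. The labels do not tie regions to mice, so a mouse block by genotype and number was an alternative only. The correlation fitted within such a block was 0.205, which the main fit leaves out.

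The enzymes and the lists were chosen with earlier results of these data known. Named were all the enzymes with every probe, the 3 genes most like each enzyme, and Nfe2l2 and Gstm1. Any related enzyme that passed a test could be named, and those printed were picked after their values were seen. Marker lists were those of cell types of the regions. The scanner files hold median but no mean signals, so the normexp alternative used the medians with an offset of 50. Other alternatives were array scaling, probe filters and averaging, the arrays fitted, moderation, blocks of replicate number, mouse and slide, and leaving out each array.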

Additional observations from a re-analysis of the deposited data

How the results depend on the processing

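For KO against WT, and for differences between regional KO effects, the number of the 9 enzymes that passed was 0 under every alternative run. Brainstem against cortex gave 3 or 4, and brainstem against hippocampus 4 or 5, with Aldh1a1, Cbr3 and Aldh9a1 passing each time. Hippocampus against cortex gave 1 (Akr1b3), but 0 with the deposited table read by its titles (adjusted p = 0.166), and 0 to 1 when each array was left out. Akr1b7, a related reductase not well above background on any array of either region, was 1.25 in hippocampus minus cortex (adjusted p = 0.000387) and -0.0547 with normexp (adjusted p = 0.848). The cause was not tested. With the replicate number as a block, the number of enzymes that passed for KO against WT stayed 0, and apart from Akr1b8 and Aox1 it changed no call of a named enzyme.

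Over all genes, calls for the KO average were 12, against 23 with the replicate block and 0 with the deposited table, 7 of whose columns hold another array. Those for hippocampus against cortex in WT were 3907, against 4 with that table and 2465 without WT hippocampus array 1. KO calls in single regions, 7, 4 and 7, ranged over 0 to 11 in cortex, 0 to 6 in hippocampus and 0 to 13 in brainstem. The random blocks by slide and by replicate number within a region, and leaving out the pair of arrays that stood apart, were chosen after seeing the data. Within-slide fits were possible on 3 slides only. Dim probes, such as those of Aldh7a1, are limited by signal over background.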
